A study of Brassica napus with 23 samples.

Results

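The comparison described here is that of oilseed rape shoots harvested 7 d after treatment with *Pseudomonas chlororaphis* PA23 against shoots of the same harvest that received broth alone. It takes in 6 of the 23 RNA sequencing libraries of the study, 3 from PA23-treated plants and 3 from controls, and it describes all genes. The members were chosen by the count columns labelled as shoot at that harvest. The *Brassica napus* plants were grown for 14 days. At 7 days after planting, PA23 plants were given 15 mL of bacterial culture and control plants LB broth. The other groups of the study are shoots harvested at 24 h and roots from both harvests, with and without PA23. No cultivar is named, and the labels do not say whether the libraries of a group came from separate plants or pools. The p-values below therefore measure only the spread between these libraries.

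PA23 is a biocontrol bacterium known for suppressing *Sclerotinia sclerotiorum*, the fungus that causes stem rot of oilseed rape, through secreted compounds such as phenazines and pyrrolnitrin. Root- and soil-associated pseudomonads of this kind are also studied for changes they bring about in the gene activity of the whole plant. *B. napus* is an allotetraploid that carries an A subgenome related to that of *B. rapa* and a C subgenome related to that of *B. oleracea*, so most genes have a closely similar partner in the other subgenome. In the gene IDs used here, the letter and number after Bna give the subgenome and chromosome. The deposited table gives IDs, positions and counts and no gene names, and no source used here names the build of its coordinates. RefSeq's list of another *B. napus* assembly, Da-Ae, matched 3347 of the 101040 IDs by symbol, gave another name for 2 of them and described none. Genes are therefore named by ID, with no role, and lists by function, photosynthesis among them, were not analysed here.

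Depth was very uneven. PA23 replicates 1, 2 and 3 held 67.2, 0.883 and 55.4 M counts, and control replicates 1, 2 and 3 held 44.9, 1.70 and 60.7 M counts. A single count was thus worth far more in the second library of either group, and a count of 0 there allows up to 3.21 CPM (counts per M counts) in PA23 replicate 2 and up to 1.80 CPM in control replicate 2, for counting error only. These limits take each count as independent. If a fragment gave 2 counts, they would be 2 times as high, and the bounds on fold given below would be lower by the same factor. Genes with at least 1 count numbered 66448, 39721 and 65670 in the PA23 libraries and 64943, 45218 and 65649 in the controls.

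The libraries of a group were not alike. The distance between a pair of libraries was taken as the coefficient of variation left after counting noise over the 2550 genes averaging at least 6 in log2 CPM. PA23 replicates 1 and 3 differed by 1.25%, and control replicates 2 and 3 by 4.44%. These values take a counting variance of 2 per count, because counts from 1 to 10 were odd in no more than 30.5% of cases. At 1 per count they were 1.75% and 7.02%. Among genes with 10 to 30 counts in a pair the mean chi-square per gene was 2.70 and 2.40, where independent counts give about 1 and a variance of 2 per count about 2. In the other pairs compared it ran from 3.18 (PA23 replicates 2 and 3 at 24 h) to 5.74 (PA23 replicates 1 and 2 at 7 d). The 2.40 sets a shallow library against a deep one, so it is not like for like with the 2.70. PA23 replicates 1 and 3 and control replicates 2 and 3 were kept as separate libraries. The column names number PA23 replicates 1, 2 and 3 as 2-3, 1-2 and 1-3, with no word on what the numbers mean, so whether replicates 1 and 3 are repeat libraries of 1 sample is not known from the labels. Results of the main test with these libraries summed are given below. PA23 replicate 2 stood at 17.1% and 17.3% from the other PA23 libraries and at 8.28% to 16.6% from the 6 shoot libraries harvested at 24 h, and its 3 nearest libraries were all from 24 h. Each of the other 7 d libraries had 1 library from 24 h among its 3 nearest. For control replicate 1 it was the nearest of all, at 22.6%. For PA23 replicates 1 and 3 it was the next nearest after each other, at 15.9% and 15.8%. Control replicate 1 stood at 34.9% and 35.0% from the other controls, further than any PA23 library stood from any control of the same harvest (19.8% to 26.7%, median 21.8% over 9 pairs). Within the PA23 group the largest distance, 17.3%, was thus just below the smallest between the groups, and within the control group the largest exceeded all of those between them.

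**Figure D1:**
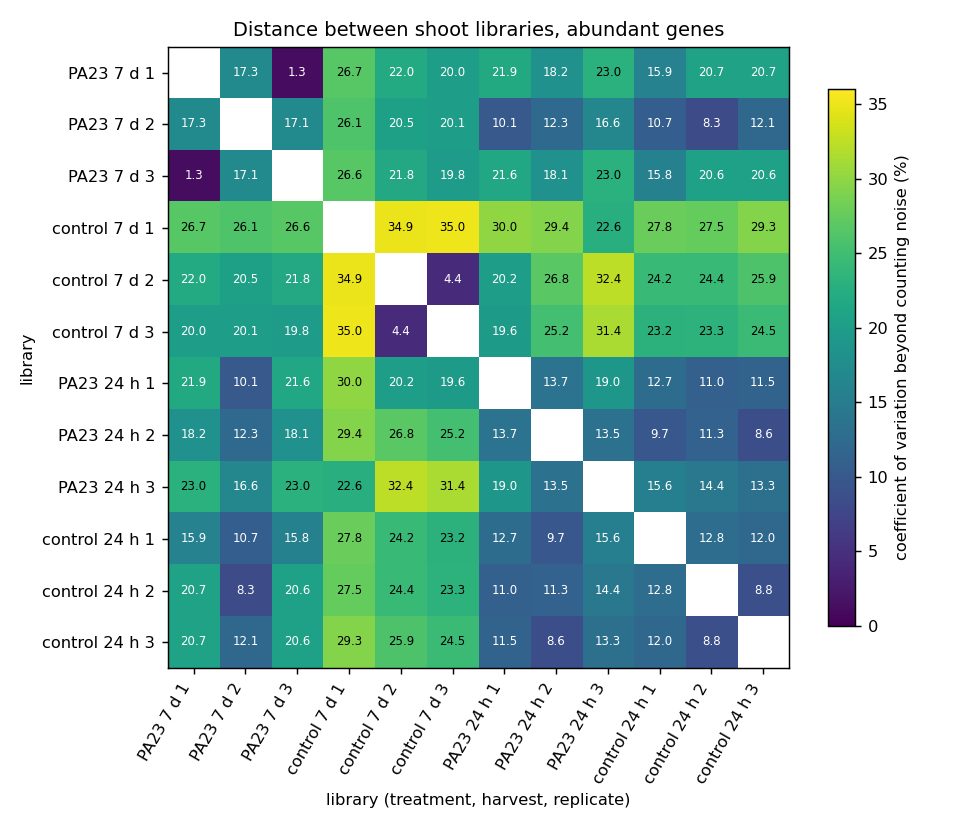
Distance between each pair of the 12 shoot libraries, as the coefficient of variation beyond counting noise in percent, over 2550 abundant genes; rows and columns are libraries by treatment, harvest and replicate, and lighter cells are further apart. PA23 replicates 1 and 3 at 7 d are 1.25% apart, PA23 replicate 2 is nearest to libraries from 24 h, and control replicate 1 has the largest distances shown, 34.9% and 35.0% from the other controls.

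The place of each library between the harvests was compared next. On an axis on which 0 is the mean of the deep 24 h controls and 1 the mean of the deep 7 d controls, over 5475 genes averaging at least 5 in log2 CPM, PA23 replicates 1, 2 and 3 stood at 0.876, 0.290 and 0.876. Control replicate 2 stood at 0.948. The 24 h libraries stood at 0.0884 to 0.152 with PA23 and at 0.0216 to 0.209 without, each 24 h control being left out of its own end of the axis. PA23 replicate 2 was thus far below its own group. The deep 7 d controls did not share a direction, since on an axis drawn to the other of them alone replicate 1 reached 0.417 and replicate 3 reached 0.292. The positions therefore moved with the control that sets the 7 d end. With control replicate 1 alone at that end, PA23 replicates 1, 2 and 3 stood at 0.521, 0.171 and 0.522, and control replicate 2 at 0.347. The 24 h libraries then reached 0.250, above PA23 replicate 2. With control replicate 3 alone, PA23 replicates 1, 2 and 3 stood at 0.685, 0.228 and 0.683, control replicate 2 at 1.05, and the 24 h libraries at no more than 0.190, below PA23 replicate 2. Harvest and treatment time come from the labels only, and whether PA23 replicate 2 was collected with its group was not tested.

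**Figure D2:**
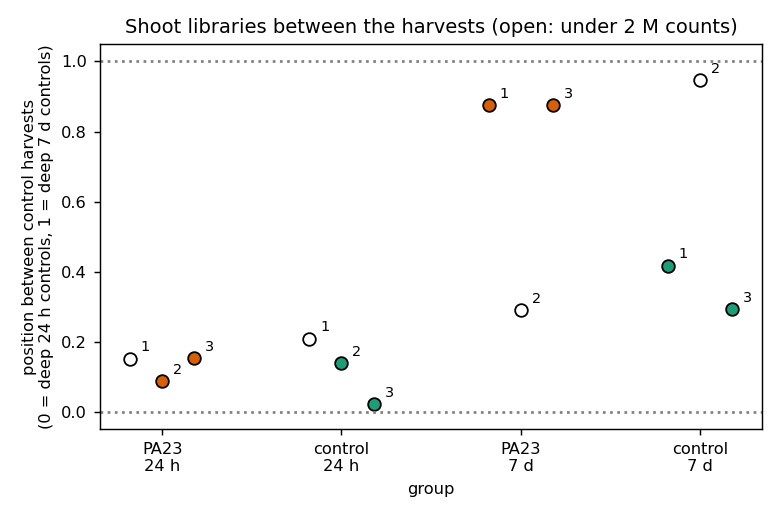
Position of each shoot library between the control harvests (vertical axis, no unit) by group, with replicate numbers beside the points and open points for libraries under 2 M counts. PA23 replicates 1 and 3 at 7 d stand at 0.876 and PA23 replicate 2 at 0.290, an order over the 24 h libraries that does not hold with control replicate 1 alone as the 7 d end; control replicates 1 and 3 at 7 d are each placed on an axis drawn to the other.

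A single gene passed the test. Counts were compared by edgeR's quasi-likelihood test, fitted on all 12 shoot libraries so that the spread was estimated over 4 groups, with p-values adjusted by Benjamini and Hochberg over the 56654 genes kept by the filter on low counts. At an adjusted p below 0.05, 1 gene was higher with PA23 and none was lower, which is 0.00177% of the genes tested. At an unadjusted p below 0.05 there were 2675 genes, 4.72% of those tested and so close to the 5% that the threshold itself admits, with 1438 higher and 1237 lower. Of the 20 genes with the smallest p, 18 were higher with PA23.

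BnaC01g09700D, on the minus strand of C01 from 5683764 to 5686252 in the coordinates of the deposited table, rose with PA23. It had 61.1, 55.6 and 58.3 CPM in PA23 replicates 1, 2 and 3, and 15.9, 10.8 and 21.4 CPM in control replicates 1, 2 and 3. All 3 PA23 libraries, the shallow replicate 2 included, were high and close together, and none overlapped the controls. The means were 58.3 ± 2.75 CPM in PA23 shoots and 16.0 ± 5.30 CPM in control shoots (SD, n = 3 each), and the log2 fold change was 1.79 ± 0.25 (SE), with an adjusted p of 0.00682 by edgeR's quasi-likelihood test. At 24 h the gene had 37.5 to 59.9 CPM in PA23 shoots and 36.7 to 51.5 CPM in control shoots, so that in level the 7 d controls were the group that stood apart. In roots at 7 d it had at most 1.39 CPM in PA23 roots and 0 in control roots. It lost its call in 6 of 21 alternative settings, among them those without PA23 replicate 1 (adjusted p = 0.0645) and without control replicate 2 (adjusted p = 0.136), while its log2 fold change stayed between 1.61 and 2.05 in all of them. With PA23 replicates 1 and 3 summed into 1 library, which leaves 2 PA23 libraries, its adjusted p was 0.0493. With the closest pairs of both groups summed it was 0.728.

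The gene of smallest p among the other genes higher with PA23, without overlap and averaging at least 3 in log2 CPM, was BnaA10g18500D, on the plus strand of A10 from 13389144 to 13390588. It had 108, 130 and 107 CPM in PA23 replicates 1, 2 and 3, and 53.0, 41.4 and 51.1 CPM in control replicates 1, 2 and 3. The PA23 libraries lay together above all 3 controls, and averaged 115 ± 13.1 CPM against 48.5 ± 6.26 CPM in control shoots (SD, n = 3 each). Its log2 fold change of 1.22 ± 0.21 (SE) did not pass, with an adjusted p of 0.105 by edgeR, and it passed in 8 of 21 alternatives, among them that without control replicate 1 (adjusted p = 0.000662). At 24 h it had 85.8 to 128 CPM in PA23 shoots and 91.2 to 127 CPM in control shoots.

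The genes of smallest p on the lower side, by the same rule, were BnaA06g01390D and BnaC03g33810D, and neither passed. BnaA06g01390D, on the plus strand of A06 from 858235 to 859784, had 50.3, 21.4 and 50.7 CPM in PA23 replicates 1, 2 and 3, and 121, 119 and 128 CPM in control replicates 1, 2 and 3. Its shallow PA23 library was lower than the deep pair, while the 3 controls lay close together. Its log2 fold change was -1.50 ± 0.29 (SE), with an adjusted p of 0.137 by edgeR, and -1.28 without PA23 replicate 2. BnaC03g33810D, on the plus strand of C03 from 20585727 to 20587639, had 18.8, 17.1 and 17.1 CPM in PA23 replicates 1, 2 and 3, and 33.6, 40.2 and 42.0 CPM in control replicates 1, 2 and 3. Its log2 fold change was -1.11 ± 0.22 (SE), with an adjusted p of 0.159 by edgeR, and -1.10 without PA23 replicate 2. Both passed in 6 alternatives, among them that without control replicate 1, with an adjusted p of 0.0326 for BnaA06g01390D and of 0.00274 for BnaC03g33810D.

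**Figure D3:**
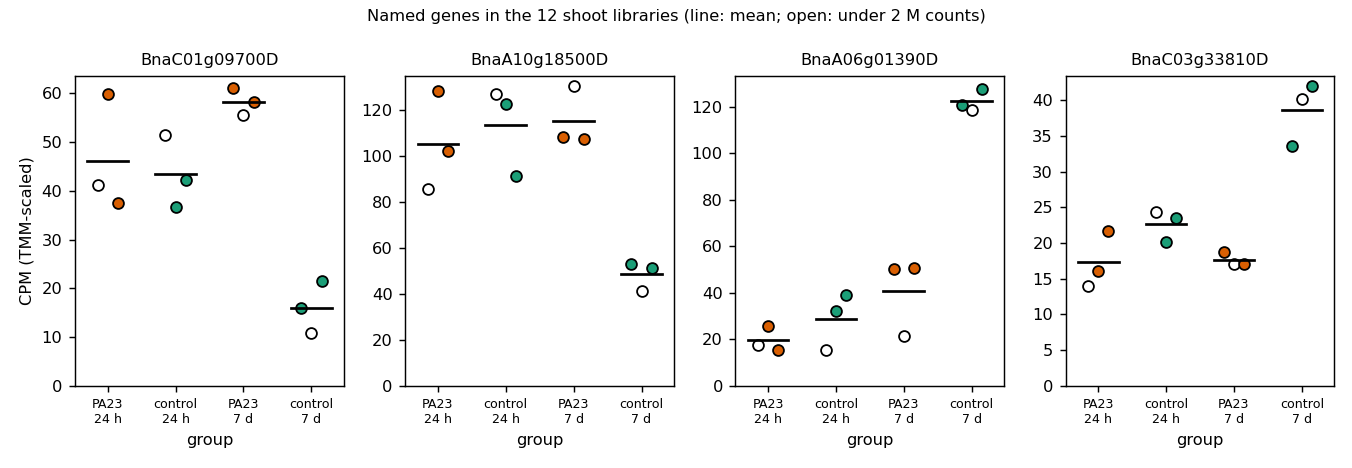
Level (CPM, scaled by TMM factors) of the 4 named genes in the 12 shoot libraries, PA23 in orange and control in green, with a line at each group's mean and open points for libraries under 2 M counts. The PA23 and control libraries of 7 d do not overlap in any of the 4 panels, and the 7 d controls lie outside the range of all 6 libraries from 24 h.

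In each of these 4 genes the 7 d controls lay outside the range of the 6 libraries from 24 h. BnaA06g01390D had 15.4 to 25.6 CPM in PA23 shoots and 15.3 to 39.0 CPM in control shoots at 24 h, and BnaC03g33810D had 14.0 to 21.7 CPM in PA23 shoots and 20.2 to 24.4 CPM in control shoots. None of the 4 passed the test of PA23 against control at 24 h by edgeR (adjusted p = 1 for each). The log2 fold changes there were 0.13 ± 0.24 (SE) for BnaC01g09700D and -0.09 ± 0.21 for BnaA10g18500D. They were -0.61 ± 0.29 for BnaA06g01390D (unadjusted p = 0.0485 by edgeR) and -0.33 ± 0.22 for BnaC03g33810D, both in the direction seen at 7 d. The difference between the PA23 effects at 7 d and at 24 h was tested in the same fit. It was 1.66 ± 0.34 (SE, log2) for BnaC01g09700D, 1.31 ± 0.30 for BnaA10g18500D, -0.88 ± 0.41 for BnaA06g01390D and -0.78 ± 0.32 for BnaC03g33810D. None of the 4 passed, with adjusted p-values of 0.569 and 0.876 for the pair that was higher and 1 for both others. Over all genes 1 of 56654 passed that test (0.00177%), and without control replicate 1 the share was 0.0736%, with BnaC01g09700D and BnaA10g18500D among those that passed. The 4 genes were chosen by the 7 d contrast, which is part of this difference, so its sizes and directions partly follow from that choice.

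Without PA23 replicate 2, edgeR called 3 genes, or 0.0051% of 58769, all of them higher with PA23. They were BnaC01g09700D and a further pair, named after their values were seen. The PA23 libraries left in that fit are replicates 1 and 3, which differed by 1.25%. Whether these are repeat libraries of 1 sample is not known. BnaC01g23300D, on C01 from 16969647 to 16970514, had 94.7, 47.0 and 96.4 CPM in PA23 replicates 1, 2 and 3, and 33.5, 27.0 and 39.8 CPM in control replicates 1, 2 and 3. Its shallow PA23 library lay between the deep PA23 pair and the controls, and with all libraries its log2 fold change was 1.27 ± 0.24 (SE) with an adjusted p of 0.123. BnaCnng37610D, on an unplaced C sequence, had 17.4, 4.28 and 14.0 CPM in PA23 replicates 1, 2 and 3, and 4.04, 5.39 and 2.87 CPM in control replicates 1, 2 and 3. Here PA23 replicate 2 lay inside the range of the controls, but not far above the 3.21 CPM that a count of 0 allows there, so its level is imprecise. With all libraries the log2 fold change of BnaCnng37610D was 1.91 ± 0.35 (SE), with an adjusted p of 0.105 by edgeR. At 24 h, BnaC01g23300D had 26.3 to 35.3 CPM in PA23 shoots and 29.9 to 35.5 CPM in control shoots. BnaCnng37610D had 6.13 to 13.0 CPM in PA23 shoots and 7.22 to 12.5 CPM in control shoots at that harvest.

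Fitting the 6 libraries alone also gave 1 call (0.00186% of 53725), of another gene. BnaA10g11500D, on A10 from 9656813 to 9657931, also named after its values were seen, had 10.7, 23.5 and 10.5 CPM in PA23 replicates 1, 2 and 3, and 1.18, 0 and 0.617 CPM in control replicates 1, 2 and 3. The means were 14.9 ± 7.46 CPM in PA23 shoots and 0.600 ± 0.591 CPM in control shoots (SD, n = 3 each). In the fit of 12 libraries its log2 fold change was 3.90 ± 0.90 (SE) and its adjusted p 0.49. Its spread at 24 h was wide, 3.61 to 8.85 CPM in PA23 shoots and 2.40 to 20.6 CPM in control shoots. The 2 IDs with another name in RefSeq moved little. BnaA02g32290D, listed as KCP1, had 16.3, 15.0 and 16.8 CPM in PA23 shoots and 15.0, 21.6 and 16.1 CPM in control shoots. BnaCnng15100D, listed as TR1, had 5.12, 4.28 and 4.96 CPM in PA23 shoots and 4.69, 4.79 and 7.21 CPM in control shoots. Neither passed (adjusted p = 1 by edgeR for both).

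Most genes differed little between the groups. Over the 56654 genes tested the median log2 fold change was -0.02, with quartiles of -0.29 and 0.23, and 6.85% reached 2-fold in either direction. Among the 19830 genes averaging at least 3 in log2 CPM only 1.15% did. The groups did not overlap in 3261 genes that were higher with PA23 (5.76%) and in 3079 that were lower (5.43%). Without PA23 replicate 2 the counts were 8249 higher and 4799 lower, and without control replicate 1 they were 7790 and 8462. Without control replicate 2 they were 4410 and 6644, without control replicate 3 they were 5868 and 6047, and without PA23 replicate 1 they were 4282 and 4646. Fewer libraries overlap less often by construction, but the balance between the directions also moved. With 3 libraries against 3, an exact two-sided permutation test of a single gene cannot go below p = 0.1, so an absence of overlap alone passes no test. If the libraries were exchangeable between the groups, a share of 0.1 would lack overlap over both directions together, beside the 5.76% and 5.43% seen. With a library left out that share is larger.

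Abundant genes leaned to the PA23 side. Among the 5475 genes averaging at least 5 in log2 CPM, the median log2 fold change was 0.11, and 752 lay without overlap above the controls (13.7%) and 148 below them (2.7%). With RLE size factors in place of TMM the counts were 751 and 171, and the median was 0.09. Without PA23 replicate 2 the median was 0.13, and without control replicate 1 it was also 0.13. The 10 most abundant genes of each library took 6.25%, 5.02% and 6.26% of all counts in PA23 replicates 1, 2 and 3, and 4.09%, 6.55% and 6.44% in control replicates 1, 2 and 3. Of these 5475 genes, 1 was called.

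**Figure D4:**
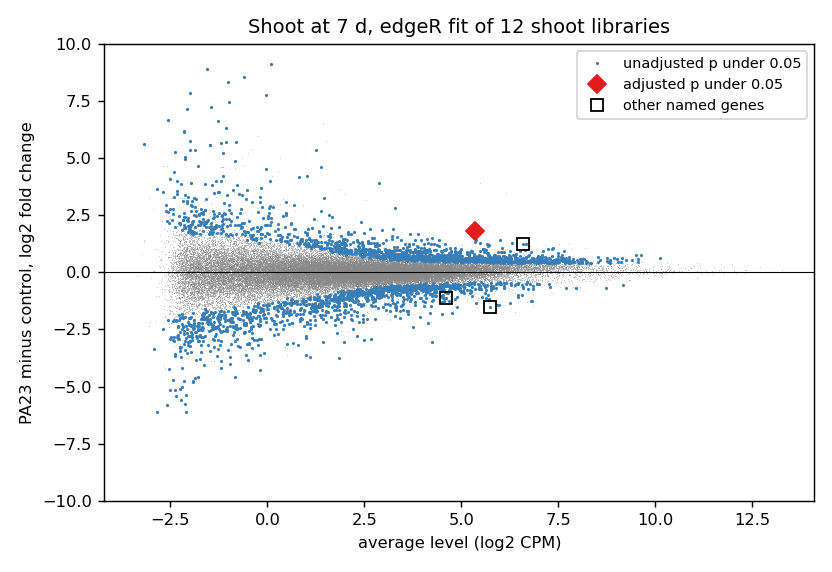
Log2 fold change of PA23 over control in shoots at 7 d (vertical axis) against average level in log2 CPM (horizontal axis) for the 56654 genes tested; blue points have an unadjusted p below 0.05, the red diamond is BnaC01g09700D, and squares are the other named genes. The spread narrows with level, and genes below a few CPM scatter over many log2 units without passing the test.

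Genes that were both separated and at least 2-fold apart were few. Among genes averaging at least 3 in log2 CPM, 1765 lay without overlap above the controls (8.9%) and 1071 below them (5.4%). Of these, 58 genes were at least 2-fold higher, with a median log2 fold change of 1.23 and a largest of 2.80, and a median level of 25.02 CPM in PA23 shoots against 10.7 CPM in control shoots. At least 2-fold lower were 15, with a median of -1.11 and a largest of -1.50, and a median level of 16.4 CPM in PA23 shoots against 34.5 CPM in control shoots. Of the 58 genes 38 lay on the A subgenome and 20 on the C subgenome, and of the 15 genes 6 lay on the A subgenome and 9 on the C subgenome. Among genes averaging at least 2 in log2 CPM, the groups did not overlap, with PA23 higher, in 8.43% on the A subgenome and 6.96% on the C subgenome, and with PA23 lower in 5.04% and 6.06% of the same sets. Without PA23 replicate 2, 50 of the 58 and 11 of the 15 were still at 2-fold. Without control replicate 1, 40 and 12 were. These genes were selected by the contrast itself, so the counts describe the selection.

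Some genes had counts in one group only. In 22 of the 101040 IDs both deep PA23 libraries had at least 10 counts and all 3 controls had 0. The reverse pattern was met by 4 IDs. The deep PA23 libraries differed by 1.25% and the deep controls by 35.0%, so the rule need not be equally easy to meet in both directions. Of the 22, 10 passed the filter on low counts and none was called, 5 had a count in the shallow PA23 library, and 19 had counts in control shoots at 24 h. The member with most counts, BnaC03g51500D, on C03 from 36066408 to 36066722, had 146, 0 and 80 counts in PA23 replicates 1, 2 and 3, and 0 in each control. Against the 3 counts that a total of 0 allows over the pooled controls, it was at least 70.8-fold higher in the pooled PA23 libraries, with each count taken as independent. At 24 h it had 4, 134 and 2 counts in PA23 shoots and 0, 113 and 53 counts in control shoots, so that libraries of 1 group differed there as widely.

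Among the edgeR fits that left out 1 library, the one without control replicate 1 gave most calls. Without it, edgeR called 737 of 58462 genes (1.26%), 178 higher with PA23 and 559 lower, against 1 gene with it. Leaving out any other of the 6 libraries gave 0 to 3 calls. Without PA23 replicate 2 and control replicate 1 together, a setting chosen after the data were seen, there were 1282 calls (2.2%), 405 higher and 877 lower, and these held 719 of the 737 genes. The controls left in those fits are replicates 2 and 3, the pair that differed by 4.44%. In the fit with 1282 calls the PA23 libraries left are replicates 1 and 3, the pair that differed by 1.25%.

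In the genes called lower without control replicate 1, that library lay on the PA23 side. Of the 552 that the fit of all libraries also tested, control replicate 1 was nearer to the PA23 mean than to the other controls in 525 (95.1%), and it lay beyond the PA23 mean in 376. Over all genes with a lower mean in PA23 that share was 46.8%. Of the 177 genes called higher it was nearer to PA23 in 112 (63.3%), against 73.6% over all genes with a higher mean in PA23. With control replicate 1 in the fit, the median log2 fold change of the genes called lower was -1.01 in place of -1.49, and that of the genes called higher was 0.73 in place of 0.97. Because the selection used the other controls, these shares are a description of how the excluded library sits.

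Other tools gave from 0 to 1894 calls. DESeq2 called 33 of 38626 genes (0.0854%), 27 higher and 6 lower, of which 28 were among the 737. Giving each library a weight in limma-voom, a setting chosen after the data were seen, gave 1894 calls (3.34%), 874 higher and 1020 lower. It gave control replicate 1 a weight of 0.173, PA23 replicates 1, 2 and 3 weights of 2.99, 0.613 and 3.32, and control replicates 2 and 3 weights of 1.04 and 0.962. It shared 581 genes with the 737, which is 78.8% of the smaller and 30.7% of the larger list, all with the same direction. These fits use counts of the same libraries, and the weights left control replicate 1 little part. The genes shared are therefore no independent support. The largest weights went to the PA23 pair that differed by 1.25%. Without weights, limma-voom called 0 genes, with 3911 at an unadjusted p below 0.05.

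Control replicate 1 also differed in whole runs of neighbouring genes. In windows of 20 neighbouring genes averaging at least 2 in log2 CPM, the level was compared with the median of the 12 shoot libraries, and 24792 genes were scanned in the 8 deep libraries. At a threshold of 0.7 on the log2 scale, control replicate 1 had 5 blocks, all lower, with 272 genes in all (1.1%), and the other deep libraries had none. The threshold and the blocks were chosen after the data were seen and carry no test, and none of the 4 named genes lies in them.

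The longest block ran on C08 from 35863233 to 38473852, up to the last annotated genes of that chromosome, and held 107 genes. Their summed level was 4265, 3255 and 4265 CPM in PA23 replicates 1, 2 and 3, and 1616, 4986 and 5232 CPM in control replicates 1, 2 and 3. Control replicate 1 was low, the PA23 libraries were intermediate, and control replicates 2 and 3 were high. The median log2 fold change of the block was 0.07, with 70 of 107 genes higher with PA23, and without control replicate 1 it was -0.31, with 17 of 107 higher. Without control replicate 3 it was 0.63, so the value depended on either deep control. Over all genes scanned the median was -0.005, with 49.4% higher.

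On C05 a block of 84 genes from 38838262 to 40476227 had summed levels of 1831, 1719 and 1828 CPM in PA23 replicates 1, 2 and 3, and 958, 1635 and 1688 CPM in control replicates 1, 2 and 3. Of its genes 69 were higher with PA23, with a median log2 fold change of 0.33, and without control replicate 1 there were 44, with a median of 0.05. Without control replicate 3 the median was 0.69. Nearer the end of C05, a block of 30 genes from 42706884 to 43146945 had summed levels of 1828, 1561 and 1783 CPM in PA23 replicates 1, 2 and 3, and 745, 2218 and 2425 CPM in control replicates 1, 2 and 3. By gene, 25 of the 30 were higher with PA23, with a median log2 fold change of 0.27. Without control replicate 1 there were 17, with a median of 0.10, and without control replicate 3 the median was 0.83. The remaining blocks held 30 genes on C05 from 6148823 to 6937033 and 21 genes on A09 from 1307 to 192515. In the direct comparison of control replicate 1 with control replicate 3, a run of 83 genes near the other end of A09, from 32009312 to 33061604, was higher in replicate 1. Its summed levels were 3585, 3193 and 3595 CPM in PA23 shoots and 3973, 3169 and 3240 CPM in control shoots, and its median log2 fold change of -0.02 became 0.31 without control replicate 1. A fit without any gene lying inside the 5 blocks, also those of lower level that were not scanned, again gave 1 call (0.00178% of 56024). What sets the library apart was not tested.

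**Figure D5:**
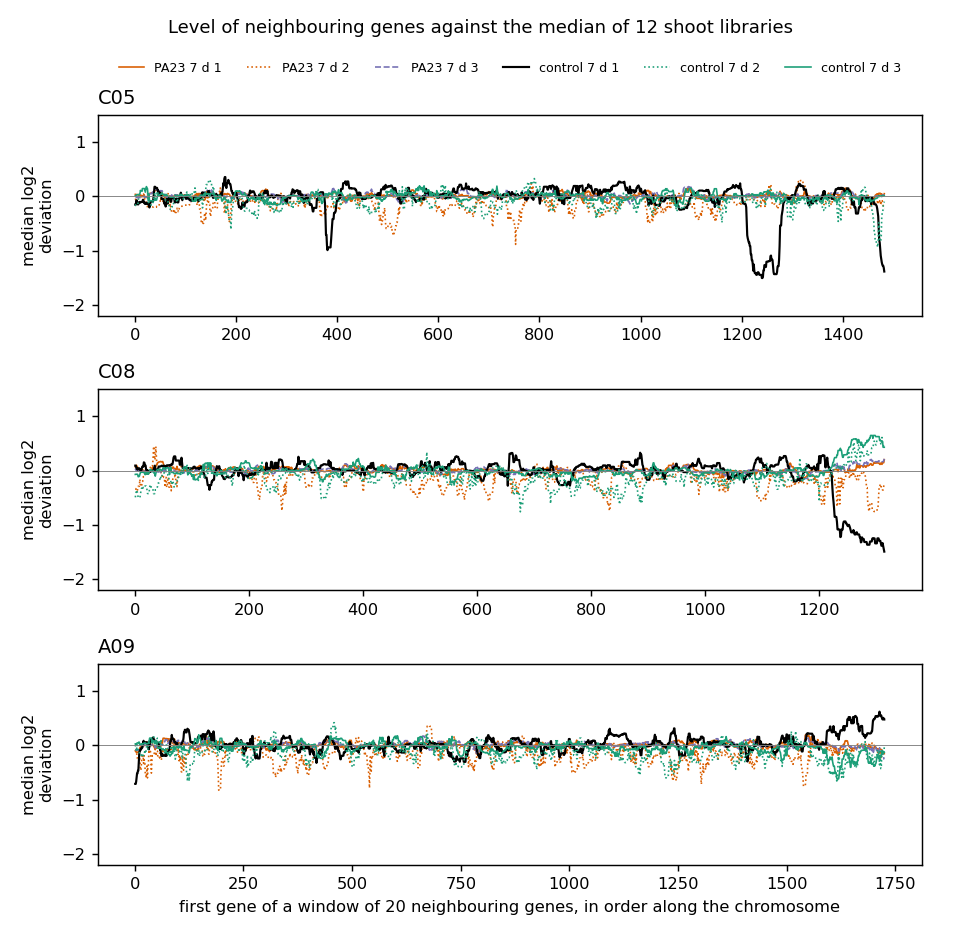
Median log2 deviation of 20 neighbouring genes from the median of the 12 shoot libraries (vertical axis) along C05, C08 and A09 in gene order (horizontal axis), for PA23 replicates (orange and violet) and control replicates (black for replicate 1, green for replicates 2 and 3). Control replicate 1 drops on C05 and at the end of C08. Control replicates 2 and 3 lie above 0 in that run of C08 and below 0 at the end of A09, where control replicate 1 lies above 0.

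Shoot identity was checked with genes chosen for their fold between shoots and roots in the 24 h controls, libraries outside the 7 d comparison. The 200 genes most preferred in shoots summed to 15565, 11948 and 15351 CPM in PA23 replicates 1, 2 and 3 and to 9123, 15793 and 17545 CPM in control replicates 1, 2 and 3, against 4.69 to 10.6 CPM in control roots at 7 d. The 200 genes most preferred in roots summed to 1.45 to 2.47 CPM in the 6 shoot libraries, against 7398 to 8632 CPM in control roots, so that these root genes were at or near 0 in all of them. The shoot-preferred sum was lowest in control replicate 1 and next lowest in PA23 replicate 2. Of the 200 shoot-preferred genes 115 were higher with PA23 and 85 lower, and none was called. Their median log2 fold change was 0.09, beside -0.02 over all genes tested. The list held only genes of at least 3 in log2 CPM in shoots. Over genes averaging at least 3 the median was 0.01, and over those averaging at least 5 it was 0.11, so abundant genes at large leaned as much. The median of the shoot-preferred genes was positive in 9 of the 10 alternatives, at most 0.25, and -0.08 without control replicate 1. In control replicate 1, where the shoot-preferred sum was lowest, the root-preferred genes summed to 1.61 CPM. Another mix of tissues within the shoot and less RNA of these genes per cell cannot be told apart in such bulk samples.

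The subgenomes moved little as a whole. Counts assigned to the A subgenome made up 49.8%, 49.9% and 49.8% in PA23 replicates 1, 2 and 3, and 49.2%, 49.5% and 49.5% in control replicates 1, 2 and 3. The median log2 fold change was 0.01 over 14334 genes of the A subgenome and -0.02 over 15181 of the C subgenome averaging at least 2 in log2 CPM. By chromosome the medians ran from -0.07 on C02 to 0.03 on A01. Counts of closely similar genes on the A and C subgenomes can be split between partners in ways the deposited counts do not show, so values of single genes are uncertain to that extent.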

How the data were processed

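The deposited table holds whole-number counts of reads per gene as the authors made them, with no normalization. Per the submitters' processing notes, HISAT2 and DESeq2 were used. No source used here names the counter, annotation, strand setting or genome build. Counts from 1 to 10 were odd in 18.9% to 30.5% of cases in the 6 libraries, and halving all counts was among the alternatives.

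The main test was edgeR 4.0.16 (R 4.3.3) with filterByExpr, TMM factors and a robust quasi-likelihood fit on the 12 shoot libraries, with Benjamini-Hochberg adjustment over all genes tested. CPM values use TMM-scaled library sizes. DESeq2 1.42.0 and limma 3.58.1 were alternatives. The edgeR fit was tested on simulated data. Named genes are all genes called, where there were at most 5, and, on either side, the 2 genes of smallest p whose groups did not overlap and whose average was at least 3 on the log2 CPM scale. Further rules by gene description gave no genes, because the reference describes none. The replicate numbers did not pair the samples. The genes, lists and comparison were chosen with earlier results of these data known. Depth ran from 0.883 to 67.2 M counts, and both shallow libraries limit the precision of low genes.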

Additional observations from a re-analysis of the deposited data

Results flagged for a closer look

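BnaC06g27730D, on C06 from 29117384 to 29119933, was the only gene whose PA23 effect at 7 d differed from that at 24 h by edgeR's quasi-likelihood test over all genes (adjusted p = 0.007), and it is named because of that value. In 7 d shoots it had 75, 0 and 52 counts in PA23 replicates 1, 2 and 3, and 0 counts in each control. At 24 h it had 0, 1 and 1 counts in PA23 shoots, and 0, 33 and 44 counts in control shoots. The deep libraries thus showed opposite directions at the harvests, while the 4 shallow libraries had no count. A count of 0 in them allows from 1.80 to 3.21 CPM, above the 1.19 CPM of PA23 replicate 1 at 7 d, so they do not exclude such a level. The fitted difference of 13.3 on the log2 scale rests on groups at or near 0 and depends on the prior count, so it is no measure of size. Against the 3 counts that a total of 0 allows over the pooled controls, the gene was at least 39.8-fold higher in the pooled PA23 libraries at 7 d, with each count taken as independent. The 7 d comparison alone did not pass (adjusted p = 0.0816). The call was lost in 7 of 19 alternatives, among them those without PA23 replicate 1 (adjusted p = 0.0712), without control replicate 3 (adjusted p = 0.0929) and with DESeq2 (adjusted p = 0.648).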

How the results depend on the processing

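The count of calls, 1 gene, moved in 14 of 21 alternatives. It was 14 with no filter, 20 with all counts halved, 0 without the libraries under 2 M counts (4212 at an unadjusted p below 0.05 by edgeR), 0 with the closest pairs of libraries summed (1021), 33 with DESeq2, 240 with DESeq2 without the shallow libraries, 0 with limma-voom and 1894 with library weights. Leaving out 1 library gave 0 to 737 calls: without PA23 replicate 1 or control replicate 2 none passed (1513 and 2281 at an unadjusted p below 0.05), without replicate 3 of either group 1 did, without PA23 replicate 2 there were 3, and without control replicate 1 there were 737. Leaving out both of the last gave 1282. That setting, the library weights and the fit without the blocks were chosen after the data were seen. A replicate block gave 25 calls (24 higher, 1 lower). The numbers share no stated plant or day, and deviations of same-numbered libraries correlated at 0.06, 0.03 and -0.08, so the block is no paired test. The count of named genes that differed by harvest, 0 of 4, was 0 to 2 with 1 library left out (2 without control replicate 1), 2 when PA23 replicate 2 was left out as well, and 0 elsewhere. No named gene changed direction in any alternative that gave a value. The groups did not overlap in any of the 4 genes and the alternatives use the same counts, so this was all but fixed by the choice of genes. The cause of these differences was not tested. Below about 3.21 CPM a gene may have no count in the shallow PA23 library, so small changes of low genes were not detectable there.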
